A study of Mus musculus with 12 samples.

Results

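Imprinted genes are active mainly on the copy inherited from 1 parent. The set described here was chosen by name and holds 46 mouse imprinted genes from 19 chromosomal clusters. Of these, 24 are known in mouse as paternally expressed, 18 as maternally expressed and 4 as imprinted in an isoform or a tissue. Identifiers of 41 were found among the 37991 in the deposited counts, while Rian, Mirg, Kcnq1ot1, Snrpn and Peg13 had no matching identifier and were not analysed here. A filter on low counts kept 38 of them among the 16163 genes tested. It left out Usp29 (37 reads over the 12 libraries together), Magel2 (12 reads) and Phlda2 (9 reads), each with at most 5 reads in a library. The RNA was polyadenylated RNA of fibroblasts from male E15.5 mouse embryos on a C57BL/6N background, which had been grown for 4 passages and then carried to day 6 of differentiation into adipocytes, with a hormone cocktail for 48 h and insulin alone after it. Per the labels, 3 libraries came from embryos deficient in both Gadd45a and Ing1 (DKO), 3 from embryos deficient in Ing1 (Ing1-KO), 3 from embryos deficient in Gadd45a (Gadd45a-KO) and 3 from wild-type embryos (WT). All 12 libraries share the strain, the sex, the passage number and the cocktail of IBMX, dexamethasone, rosiglitazone and insulin. Whether replicates were separate embryos or cultures is not given in the labels, so p-values here reflect library-to-library spread, which may be technical.

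An imprint is a DNA methylation mark set in the egg or the sperm at a control region, and it is kept through the erasure of methylation in the early embryo by zinc finger proteins such as ZFP57 with their partner TRIM28. Imprinted genes lie in clusters where 1 control region governs several neighbours, often through a long non-coding RNA made from 1 parental copy. Paternally expressed genes such as Igf2 tend to promote growth of the embryo, and maternally expressed genes such as Grb10 and Igf2r to restrain it; many are strongly expressed in embryonic mesenchyme and in fat cell precursors. GADD45A has been linked to removal of DNA methylation, and ING1 binds methylated histone H3 as a subunit of a deacetylase complex. Counts per gene add both parental copies, so the values below are total levels and say nothing of which copy was read.

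The targeted genes check the labels. Ing1 lay between 0.68 and 1.15 CPM (gene reads scaled to a common depth with TMM factors) in DKO-labelled libraries and between 1.00 and 1.60 CPM in Ing1-KO, against 43.6 to 47.9 CPM in the other 6 libraries, as labelled. Gadd45a went against its label: it lay between 138 and 144 CPM in the 6 libraries with a Gadd45a-deficient label and between 13.4 and 18.4 CPM in Ing1-KO and WT. Reads were counted over whole genes, so the exons they came from are unknown, and every genotype name and direction below rests on the labels where Gadd45a is concerned. Gene reads ran from 42891627 to 52860419 per library. All 9 fibroblast markers were tested, with Col1a1 at 13204 CPM or more in every library. By edgeR (adjusted p under 0.05), 1 fell in Ing1-KO against WT and 1 in DKO-labelled libraries against WT. In all libraries lacking Ing1 against those that carry it 2 fell, and 0 rose in any of these. Their sum was 47524 to 52139 CPM in DKO-labelled libraries, 53834 to 56085 CPM in Ing1-KO, 53138 to 54498 CPM in Gadd45a-KO-labelled cells and 54303 to 58815 CPM in WT. Of 15 adipocyte markers, 13 fell in DKO-labelled libraries against WT by edgeR (adjusted p under 0.05), where 13% of all genes were called. In DKO-labelled libraries against Ing1-KO 10 fell (all genes, 12%), and in Ing1-KO against WT 0 fell (4.15%). In all libraries lacking Ing1 against those that carry it 7 fell and 0 rose (8.16%). The summed level of the 15 markers was 448 to 526 CPM in DKO-labelled libraries, 450 to 3777 CPM in Ing1-KO, 1422 to 1910 CPM in Gadd45a-KO-labelled cells and 2089 to 4264 CPM in WT. Within Ing1-KO the sums were 3777, 1281 and 450 CPM in replicates 1, 2 and 3. Of 15 leukocyte markers, 8 rose in DKO-labelled libraries against WT and 0 in Ing1-KO against WT; their sum was 7890 to 8407 CPM, 4225 to 5003 CPM, 2223 to 6582 CPM and 4232 to 4868 CPM in DKO-labelled, Ing1-KO, Gadd45a-KO-labelled and WT libraries. Of 8 cartilage markers 3 rose in Ing1-KO against WT, 3 rose and 1 fell in DKO-labelled libraries against WT, 3 fell in DKO-labelled libraries against Ing1-KO, and 4 rose in all libraries lacking Ing1 against those that carry it. Their sum was 52.6 to 72.9 CPM in DKO-labelled libraries, 71.1 to 125 CPM in Ing1-KO, 36.1 to 39.0 CPM in Gadd45a-KO-labelled cells and at most 40.4 CPM in WT. The skeletal muscle marker Ckm had 0 reads in every library, and of the 13 tested markers of muscle, neurons and endothelium at most 2 were called in any comparison. In bulk RNA, fewer cells of a type and less RNA per cell cannot be told apart; the part of these markers in the results below was not tested.

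Ing1-KO against WT asked what loss of Ing1 does where Gadd45a is labelled intact. By edgeR's quasi-likelihood test, 6 of the 38 imprinted genes rose (Mest, Igf2, Ddc, Airn, Grb10 and Meg3) and 1, Slc22a3, fell, together 18.4% of those tested. Among all genes tested, 4.15% were called. The median log2 fold change was 0.08 over the imprinted genes and 0.00 over all genes, and 29 of the 38 were positive (76.3%), beside 50.8% of all genes. The libraries of the 2 groups did not overlap for 11 imprinted genes that were higher and 3 that were lower, beside 26.6% of all genes. The count of 7 was 1 when WT replicate 2 (all genes, 0.828% called), WT replicate 3 (1.06%) or Ing1-KO replicate 2 (0.586%) was left out and 2 when WT replicate 1 was (0.964%). It was 4 on omission of Gadd45a-KO replicate 3 (2.46%) or DKO replicate 1 (2.44%), which enter through the shared spread. In each of these fits the calls over all genes dropped as well. DESeq2 called 12, adding Cd81, Copg2, H19, Plagl1 and Rtl1, and 7.77% of all genes.

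In DKO-labelled libraries against WT, 3 imprinted genes rose (Mest, Grb10 and Ddc) and 4 fell (Slc22a3, Peg10, Nap1l5 and Ndn), again 18.4% of 38. The share over all genes was 13%, nearer to that of the imprinted genes than in Ing1-KO against WT, and the difference was not tested. The median was -0.02 for the imprinted genes and 0.00 for all genes, and 17 of 38 were positive (44.7%), beside 49.3% of all genes. Without DKO replicate 1 the count was 2 (all genes, 1.96% called), and it was 3 without DKO replicate 2 (4.96%), WT replicate 1 (1.82%) or WT replicate 3 (4.11%), so calls over all genes dropped with it. DKO-labelled libraries against Gadd45a-KO-labelled cells asked for the same loss of Ing1 in the other labelled background. There 1 imprinted gene, Slc22a3, fell (2.63% of 38; all genes, 1.19%, of which 53.1% were higher, or 41.4% of the calls with upper-quartile factors). That count was 0 without WT replicate 3 (all genes, 0.421%), Gadd45a-KO replicate 2 (0.402%) or 3 (0.238%), or DKO replicate 1 (0.0366%) or 2 (0.116%). It was 2 without Gadd45a-KO replicate 1 (2.27%), 3 without Ing1-KO replicate 1 (2.99%) or DKO replicate 3 (3.16%), and 4 without Ing1-KO replicate 3 (3.66%).

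With both backgrounds averaged, the 6 libraries lacking Ing1 (labelled DKO or Ing1-KO) had 8 imprinted genes called against the 6 that carry it, 21.1% of 38. Mest, Igf2, Airn, Grb10 and Copg2 rose, and Slc22a3, Peg10 and Nap1l5 fell; among all genes 8.16% were called. The count was 3 when Ing1-KO replicate 2 was left out (all genes, 3.3%), 4 when replicate 1 of WT (3.54%) or of DKO (3.21%) was, and 5 when Gadd45a-KO replicate 3 (4.41%) or DKO replicate 2 (4.49%) was. In DKO-labelled libraries against Ing1-KO, 7 imprinted genes fell and none rose: Mest, Slc22a3, Peg10, Airn, Ndn, Meg3 and Blcap (18.4% of 38; all genes, 12%, of which 49.6% were higher, or 38% with upper-quartile factors). Here 6 of 38 imprinted genes had a positive log2 fold change (15.8%), beside 47.0% of all genes. Calls in this comparison depended on single libraries over all genes and the imprinted genes alike. By edgeR 0 imprinted genes were called without DKO replicate 1 (all genes, 0.0366%), DKO replicate 2 (0.853%), Ing1-KO replicate 1 (1.89%) or Ing1-KO replicate 2 (0.0733%), whereas omitting Ing1-KO replicate 3 gave 15 (19.4%).

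In Gadd45a-KO-labelled cells against WT, edgeR and DESeq2 each called 0 of the 38; 5 had an unadjusted p under 0.05 by edgeR and 6 by DESeq2. Among all genes 0.0124% were called by edgeR (2 of 16163, Gadd45a among them), and 5.28% had an unadjusted p under 0.05. The interaction, which tests whether the effect of Ing1 loss differs between the labelled backgrounds, gave 0 imprinted genes and 0% of all genes by edgeR. At an unadjusted p under 0.05 there were 8 of the 38, beside 13.6% of all genes. DESeq2 called Meg3 and Mest for it, both with a negative value, and 1.07% of all genes; without Ing1-KO replicate 3 edgeR called 1, Mest, and 1.17% of all genes. Of the 38 interaction values 5 were positive (13.2%, against 49.4% of all genes), with a median of -0.15 for imprinted genes and 0.00 for all genes. The same 3 Ing1-KO libraries enter the interaction, Ing1-KO against WT and DKO-labelled libraries against Ing1-KO. The shares of positive values in these comparisons are therefore not separate observations.

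**Figure D1:**
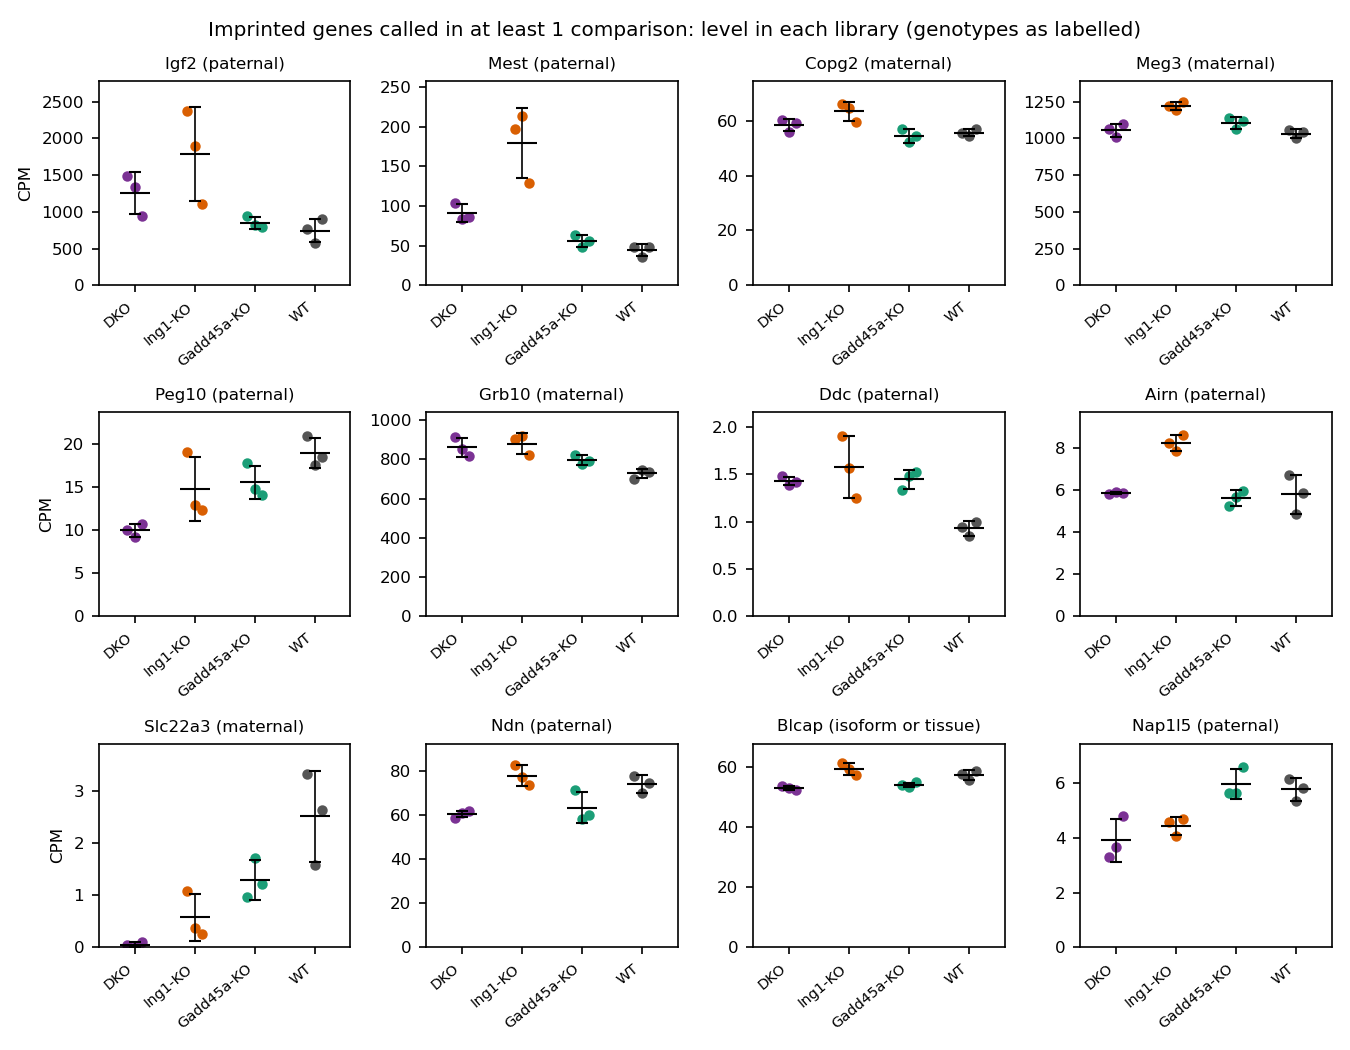
CPM in each library (points) for the 12 imprinted genes called in at least 1 comparison, with the mean (long bar) and SD (short bars) of the 3 libraries of each labelled genotype; every axis starts at 0. Mest lies between 130 and 213 CPM in Ing1-KO and between 35.5 and 48.8 CPM in WT, and Slc22a3 has at most 5 reads in any DKO-labelled library.

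Mest (ENSMUSG00000051855, chromosome 6), a paternally expressed gene for an endoplasmic reticulum protein of the hydrolase family whose level tracks the growth of fat tissue in mice, had the largest rise among the imprinted genes in Ing1-KO against WT. It stood at 104, 83.6 and 85.6 CPM in DKO-labelled libraries and at 197, 213 and 130 CPM in Ing1-KO. In Gadd45a-KO-labelled cells it stood at 63.6, 48.8 and 55.4 CPM, and in WT at 48.8, 35.5 and 48.5 CPM. All 6 libraries lacking Ing1 lay above all 6 that carry it. The sum of the cartilage markers did so too, at 52.6 to 125 CPM in the 6 lacking Ing1 and 36.1 to 40.4 CPM in the 6 that carry it, and its part in the levels of Mest and Igf2 was not tested. The Mest log2 fold change was 2.02 ± 0.20 (SE; adjusted p = 0.00197) in Ing1-KO against WT and 1.36 ± 0.139 (adjusted p = 0.00103) averaged over both backgrounds, and both calls held under each alternative tried. In DKO-labelled libraries it was 1.04 ± 0.196 above WT (adjusted p = 0.0131; 0.0585 without DKO replicate 1) and 0.98 below Ing1-KO on the log2 scale (adjusted p = 0.0213). The last call was lost without Ing1-KO replicate 1 or 2 or DKO replicate 1 or 2 (adjusted p 0.0678 to 0.0804). Against Gadd45a-KO-labelled cells the value in DKO-labelled libraries was 0.70 ± 0.195 (adjusted p = 0.0962), and the interaction was -1.32 ± 0.275 (adjusted p = 0.163 by edgeR and 0.000512 by DESeq2).

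RefSeq (GRCm38.p6) lists separate starts for Mest, and the 250 bases before 2 of them are shown because Mest is the imprinted gene with the clearest difference; capitals mark TGCCGC, the hexamer bound by ZFP57 when methylated, on either strand. The first holds 7 CpG and no match; the second holds 14 CpG and 2 matches.
Mest, chr6:30733256-30733505, plus strand: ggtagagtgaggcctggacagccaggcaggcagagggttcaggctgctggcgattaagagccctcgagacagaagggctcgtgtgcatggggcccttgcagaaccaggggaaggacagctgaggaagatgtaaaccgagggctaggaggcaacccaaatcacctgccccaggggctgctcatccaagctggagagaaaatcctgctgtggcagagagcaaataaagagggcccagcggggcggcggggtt
Mest, chr6:30737800-30738049, plus strand: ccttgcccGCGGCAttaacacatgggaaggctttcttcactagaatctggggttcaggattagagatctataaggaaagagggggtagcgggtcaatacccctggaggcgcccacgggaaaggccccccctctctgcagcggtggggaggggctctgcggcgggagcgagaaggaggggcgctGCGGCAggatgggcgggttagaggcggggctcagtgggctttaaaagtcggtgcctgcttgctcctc
Among the 32817 promoter windows of this length that were counted, 8.7% hold the hexamer. Of 54 counted windows matched to 37 of the imprinted genes, 8 do (14.8%), in Copg2, Meg3, Mest, Nap1l5, Plagl1, Zdbf2 and Zim1. Overlapping windows of Mest with the same matches are counted separately. By gene, 7 of 37 hold it, beside 2657 of 26994. The hexamer itself holds a CpG, and the median window has 10 CpG for imprinted genes and 6 for all. The shares are not adjusted for this, and their difference was not tested. The count did not take in every annotated promoter, and Impact was among the listed genes without a counted window. A match is a run of letters and not a measured site, and methylation was not measured here.

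Copg2 (ENSMUSG00000025607), which encodes a coat protein of transport vesicles and runs antisense to Mest, rose by a far smaller amount in the 6 libraries lacking Ing1, by 0.14 ± 0.0353 on the log2 scale (adjusted p = 0.0328). It stood at 60.2, 55.9 and 59.4 CPM in DKO-labelled libraries, 66.1, 64.7 and 59.6 CPM in Ing1-KO, 57.2, 52.2 and 54.3 CPM in Gadd45a-KO-labelled cells and 55.8, 54.5 and 57.0 CPM in WT. The groups overlapped, and the call was lost without any 1 of 8 libraries: the 3 of WT, replicate 1 or 3 of DKO, replicate 2 of Ing1-KO, and replicate 2 or 3 of Gadd45a-KO (adjusted p 0.0577 to 0.0857). In the mouse annotation 23.1% of Mest exon bases and 17.8% of Copg2 exon bases are shared between the 2 genes on opposite strands. The library kit does not mark strand, so part of the reads of either may belong to the other.

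Igf2 (ENSMUSG00000048583, chromosome 7), the paternally expressed insulin-like growth factor of the embryo, was the second largest rise in Ing1-KO. It stood at 1488, 1333 and 938 CPM in DKO-labelled libraries, 2372, 1892 and 1103 CPM in Ing1-KO, 940.0, 819 and 793 CPM in Gadd45a-KO-labelled cells and 759.7, 578 and 897 CPM in WT. All 3 Ing1-KO libraries lay above all 3 WT libraries, by 1.26 ± 0.274 in log2 fold change (adjusted p = 0.0356), and averaged over both backgrounds the value was 0.91 ± 0.192 (adjusted p = 0.0215). In DKO-labelled libraries it was 0.75 ± 0.271 against WT (adjusted p = 0.0982) and 0.56 ± 0.270 against Gadd45a-KO-labelled cells (adjusted p = 0.287). Replicates 1, 2 and 3 of Ing1-KO had the same order in Igf2 as in the sum of the adipocyte markers. Each WT library, with sums of 2089 to 4264 CPM, had less Igf2 than each Ing1-KO library, and WT replicate 2 was the lowest of WT in both. The part of the adipocyte markers in the level of Igf2 was not tested. The call in Ing1-KO was lost without any 1 of 9 libraries, all but Gadd45a-KO replicate 1, Ing1-KO replicate 3 and DKO replicate 3 (adjusted p 0.05 to 0.133), and that of the averaged comparison without WT replicate 1, Gadd45a-KO replicate 3, Ing1-KO replicate 2 or DKO replicate 1 or 2 (adjusted p 0.0501 to 0.0587).

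H19, the maternally expressed non-coding RNA that shares its enhancers with Igf2, was not called by edgeR. It stood at 3779.7, 3188 and 3203 CPM in DKO-labelled libraries, 5274, 4419.9 and 2768 CPM in Ing1-KO, 2575, 3111 and 2861 CPM in Gadd45a-KO-labelled cells and 2436, 2114 and 2796 CPM in WT. Ing1-KO replicate 3 lay within the WT range and the other two above it. The log2 fold change was 0.76 ± 0.202 in Ing1-KO against WT (adjusted p = 0.0636; 0.00237 without Ing1-KO replicate 3; 0.00199 by DESeq2) and 0.51 ± 0.142 averaged over both backgrounds (adjusted p = 0.0563). The log2 ratio of Igf2 to H19 reads, which has meaning across libraries and not as a ratio of molecules because it is not per length, was -1.46 ± 0.275 (SD, n = 3) in DKO-labelled libraries, -1.23 ± 0.0875 in Ing1-KO, -1.74 ± 0.254 in Gadd45a-KO-labelled cells and -1.73 ± 0.123 in WT. The 3 Ing1-KO ratios, from -1.33 to -1.15, lay above the WT ratios, from -1.87 to -1.64; those of DKO-labelled libraries, from -1.77 to -1.26, overlapped WT.

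**Figure D2:**
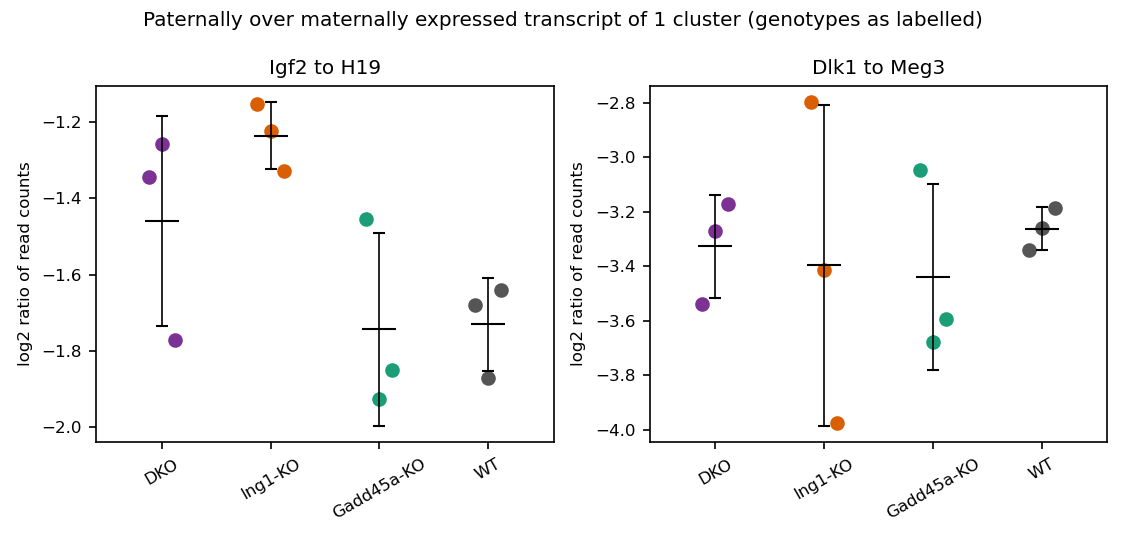
Log2 ratio of read counts of the paternally to the maternally expressed transcript in 2 clusters, for each library (points), with the mean (long bar) and SD (short bars) of each labelled genotype. The Igf2 to H19 ratio of Ing1-KO lies above that of WT in all 3 libraries, and the Dlk1 to Meg3 ratios of the 4 genotypes overlap.

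Meg3 (ENSMUSG00000021268, chromosome 12), the maternally expressed non-coding RNA of the Dlk1-Dio3 cluster, was higher in Ing1-KO by a small but even margin. It stood at 1062.5, 1007 and 1098 CPM in DKO-labelled libraries and at 1218, 1196 and 1249.6 CPM in Ing1-KO. In Gadd45a-KO-labelled cells it stood at 1141, 1063 and 1119.7 CPM, and in WT at 1057, 1000.4 and 1041 CPM. The Ing1-KO libraries overlapped with none of the other 9. The log2 fold change was 0.24 ± 0.0459 in Ing1-KO against WT (adjusted p = 0.0194; lost without any 1 WT library or Ing1-KO replicate 2, adjusted p 0.0533 to 0.0869). In DKO-labelled libraries against Ing1-KO it fell by 0.21 (adjusted p = 0.0242, SE 0.0459; lost without Ing1-KO or DKO replicate 1 or 2, adjusted p 0.0659 to 0.0885). The paternally expressed genes of the same cluster were not called. Dlk1, a surface protein that holds back adipocyte differentiation, ranged widely in Ing1-KO (175, 112 and 79.4 CPM) around the 104 to 114 CPM of WT. Rtl1, a gene derived from a retrotransposon and needed in the placenta, had the smallest adjusted p of the 26 imprinted genes never called. By edgeR it was 0.0504 in DKO-labelled libraries against Ing1-KO (-0.44 ± 0.132). Rtl1 stood at 4.58, 5.19 and 6.87 CPM in DKO-labelled libraries and 7.74, 7.89 and 7.04 CPM in Ing1-KO. In the annotation 8.4% of Rtl1 exon bases are shared with microRNA genes, most of them antisense. The library kit does not mark strand, so part of the Rtl1 reads may come from the other strand. Dio3, which inactivates thyroid hormone, stood at 1.33 ± 0.191 CPM in DKO-labelled libraries and 2.15 ± 0.227 CPM in WT (SD, n = 3; adjusted p = 0.0992). The log2 ratio of Dlk1 to Meg3 reads was -3.33 ± 0.189 in DKO-labelled libraries, -3.40 ± 0.589 in Ing1-KO, -3.44 ± 0.342 in Gadd45a-KO-labelled cells and -3.26 ± 0.0782 in WT, with overlap between all of them.

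Slc22a3 (ENSMUSG00000023828, chromosome 17), a transporter of organic cations that is maternally expressed in the mouse placenta, was the imprinted gene with the largest fall. It had 2, 0 and 5 reads in DKO-labelled libraries, 54, 18 and 13 in Ing1-KO, 51, 84 and 57 in Gadd45a-KO-labelled cells and 158, 73 and 132 in WT. DKO-labelled libraries lay below all others, and each Ing1-KO library lay below each WT library. Scaled for depth, the pooled level in DKO-labelled libraries was 2.05% of that in WT (exact 95% interval 0.816% to 4.26%, which covers counting error only) and 8.89% of that in Ing1-KO. The fitted log2 fold changes were -5.55 ± 0.738 in DKO-labelled libraries against WT (adjusted p = 0.00364) and -2.14 ± 0.506 in Ing1-KO against WT (adjusted p = 0.0436). They were -4.59 ± 0.776 in DKO-labelled libraries against Gadd45a-KO-labelled cells (adjusted p = 0.0271) and -3.41 ± 0.853 against Ing1-KO (adjusted p = 0.034). Averaged over both backgrounds the value was -3.36 ± 0.463 (adjusted p = 0.00328), and this call and that of DKO-labelled libraries against WT held under each alternative in which the gene was tested. The call in Ing1-KO was lost without any 1 of 8 libraries, which were each WT library, DKO replicate 1, and replicates 2 and 3 of both Ing1-KO and Gadd45a-KO (adjusted p 0.0553 to 0.182). Against Gadd45a-KO-labelled cells it was lost without WT replicate 3, Gadd45a-KO replicate 2 or 3, or DKO replicate 1 or 2 (adjusted p 0.0538 to 0.146), and against Ing1-KO without WT replicate 3, Gadd45a-KO replicate 3, Ing1-KO replicate 1 or 2, or DKO replicate 1 or 2 (adjusted p 0.0501 to 0.111). The sum of the adipocyte markers, 448 to 526 CPM in DKO-labelled libraries and 2089 to 4264 CPM in WT, moved with Slc22a3. Within WT, Ing1-KO and DKO-labelled libraries the replicates had the same order in both, and within Gadd45a-KO-labelled cells they did not. Gadd45a-KO-labelled cells, with sums of 1422 to 1910 CPM, had a Slc22a3 log2 fold change of -0.96 ± 0.466 against WT (edgeR adjusted p = 0.897). The part of the adipocyte markers in these results was not tested. In the annotation 9.3% of Slc22a3 exon bases overlap Plg on the other strand.

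The 250 bases before the RefSeq start of Slc22a3 are given for comparison with those of Mest, since both genes differed most and in opposite directions; they hold 5 CpG and no TGCCGC on either strand.
Slc22a3, chr17:12507705-12507954, minus strand: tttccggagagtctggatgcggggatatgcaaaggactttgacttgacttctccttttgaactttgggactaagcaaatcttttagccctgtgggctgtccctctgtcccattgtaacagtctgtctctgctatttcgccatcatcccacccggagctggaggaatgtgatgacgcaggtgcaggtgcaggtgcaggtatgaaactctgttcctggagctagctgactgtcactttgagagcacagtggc

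Airn (ENSMUSG00000078247), the paternally expressed long non-coding RNA of the same cluster that silences Igf2r and, in the placenta, Slc22a3, was called in the opposite direction in Ing1-KO. It stood at 5.82, 5.94 and 5.88 CPM in DKO-labelled libraries, 8.24, 7.85 and 8.63 CPM in Ing1-KO, 5.25, 5.68 and 5.98 CPM in Gadd45a-KO-labelled cells and 6.73, 4.88 and 5.85 CPM in WT. The Ing1-KO libraries lay above the other 9, which overlapped with each other. The log2 fold change was 0.50 ± 0.106 in Ing1-KO against WT (adjusted p = 0.0288; lost without WT replicate 2 or 3 or Ing1-KO replicate 2, adjusted p 0.0869 to 0.0907). It was -0.49 ± 0.106 in DKO-labelled libraries against Ing1-KO (adjusted p = 0.024; lost without Ing1-KO or DKO replicate 1 or 2, adjusted p 0.0671 to 0.0914). Averaged over both backgrounds it was 0.28 ± 0.0755 (adjusted p = 0.0446), a call lost without any 1 library other than WT replicate 1 (adjusted p 0.0554 to 0.0936). Igf2r, the maternally expressed receptor that clears IGF2, was not called: it stood at 653 ± 25.1 CPM in DKO-labelled libraries, 632 ± 74.5 CPM in Ing1-KO, 614 ± 39.3 CPM in Gadd45a-KO-labelled cells and 582 ± 4.92 CPM in WT (SD, n = 3). Airn runs antisense to Igf2r, and the annotation gives them no shared exon bases. The library kit does not mark strand, so unspliced Igf2r RNA could be counted as Airn, and its part in the Airn calls was not tested.

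Grb10 (ENSMUSG00000020176, chromosome 11), a maternally expressed adaptor protein that dampens insulin and growth factor receptors, was slightly higher than WT in all 3 mutant labels, and was called in the 2 that lack Ing1. It stood at 914, 853 and 814 CPM in DKO-labelled libraries, 902, 918 and 820.5 CPM in Ing1-KO, 823, 774 and 791 CPM in Gadd45a-KO-labelled cells and 700.4, 747 and 737 CPM in WT. Of all genes, 37.3% did not overlap with WT, in either direction, in DKO-labelled libraries, 26.6% in Ing1-KO and 12.2% in Gadd45a-KO-labelled cells. For Grb10, all libraries of the 3 mutant labels lay above all 3 WT libraries, a split for which no share over all genes was counted. The log2 fold change was 0.24 ± 0.0563 in DKO-labelled libraries against WT (adjusted p = 0.021; lost without DKO replicate 1 or 2 or WT replicate 1 or 3, adjusted p 0.0532 to 0.0966). In Ing1-KO against WT it was 0.27 ± 0.0563 (adjusted p = 0.0268; lost without any 1 WT library or Ing1-KO replicate 2, adjusted p 0.0727 to 0.126). Averaged over both backgrounds it was 0.19 ± 0.0398 (adjusted p = 0.0171; 0.0501 without WT replicate 1 and 0.0516 without Ing1-KO replicate 2). For DKO-labelled libraries against Gadd45a-KO-labelled cells, which overlapped, the value was 0.11 ± 0.0563 (adjusted p = 0.297), and for Gadd45a-KO-labelled cells against WT it was 0.13 ± 0.0563 (adjusted p = 0.897).

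Ddc (ENSMUSG00000020182), the neighbour of Grb10, encodes aromatic amino acid decarboxylase, an enzyme of dopamine and serotonin synthesis, and is paternally expressed in the embryonic heart of mice. It stood at 1.48, 1.39 and 1.42 CPM in DKO-labelled libraries, 1.90, 1.57 and 1.25 CPM in Ing1-KO and 1.34, 1.48 and 1.53 CPM in Gadd45a-KO-labelled cells, against 0.944, 0.845 and 0.995 CPM in WT. As for Grb10, all 9 libraries of the mutant labels lay above WT, and how many of all genes do so was not counted. The call was made for DKO-labelled libraries (0.62 ± 0.167, adjusted p = 0.0343) and for Ing1-KO (0.76 ± 0.165, adjusted p = 0.0317), whereas Gadd45a-KO-labelled cells, at 0.64 ± 0.166, had an adjusted p of 0.897 in a comparison that called 2 genes in all. The first call was lost without any 1 library of WT or DKO or without Ing1-KO replicate 2 (adjusted p 0.0511 to 0.107), and the second without any 1 library of WT, Gadd45a-KO replicate 3, Ing1-KO replicate 1 or 2, or DKO replicate 1 (adjusted p 0.0502 to 0.115). It had 39 to 95 reads per library.

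Peg10 (ENSMUSG00000092035, chromosome 6), a paternally expressed gene derived from a retrotransposon, was lowest in DKO-labelled libraries. It stood there at 9.97, 9.25 and 10.7 CPM, against 19.1, 12.9 and 12.4 CPM in Ing1-KO, 17.8, 14.8 and 14.1 CPM in Gadd45a-KO-labelled cells and 20.9, 17.5 and 18.5 CPM in WT. DKO-labelled libraries lay below the other 9. The fall was 0.93 on the log2 scale against WT (adjusted p = 0.00872, SE 0.158), which held under each alternative. Against Ing1-KO it was 0.57 lower (adjusted p = 0.0445, SE 0.158), a call that was lost without any 1 library other than Gadd45a-KO replicate 1 and Ing1-KO replicate 3 (adjusted p 0.055 to 0.127; -0.34 without Ing1-KO replicate 1). Against Gadd45a-KO-labelled cells the log2 fold change was -0.64 ± 0.158 (adjusted p = 0.0688). Averaged over both backgrounds it was -0.50 ± 0.111 (adjusted p = 0.0235; lost without WT replicate 1, Ing1-KO replicate 2, or DKO replicate 1 or 2, adjusted p 0.0588 to 0.0625). In Ing1-KO the library with the highest sum of adipocyte markers, replicate 1, also had the highest Peg10. Sgce, the paternally expressed sarcoglycan gene that shares its control region with Peg10, was not called (52.0 ± 2.64 CPM in DKO-labelled libraries and 57.7 ± 3.13 CPM in WT; SD, n = 3), nor were the maternally expressed Ppp1r9a and Asb4 of the same cluster.

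Nap1l5 (ENSMUSG00000055430, chromosome 6), a paternally expressed intronless gene related to nucleosome assembly proteins, was lower in every library lacking Ing1. It stood at 3.29, 3.67 and 4.78 CPM in DKO-labelled libraries and 4.59, 4.06 and 4.67 CPM in Ing1-KO, against 5.65, 5.63 and 6.60 CPM in Gadd45a-KO-labelled cells and 6.16, 5.33 and 5.83 CPM in WT. The 6 libraries lacking Ing1 did not overlap with the 6 that carry it, which was so for 2 of the 38 imprinted genes (Mest and Nap1l5) and for 3.01% of all genes. Averaged over both backgrounds it fell by 0.49 on the log2 scale (adjusted p = 0.0133, SE 0.0954), and this held under each alternative. DKO-labelled libraries were 0.56 lower than WT (adjusted p = 0.0238, SE 0.136; lost without DKO replicate 1 or 2 or WT replicate 1 or 3, adjusted p 0.073 to 0.1). Against Gadd45a-KO-labelled cells the value was -0.60 ± 0.136 (adjusted p = 0.056).

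The promoter window of Nap1l5 is shown because its fall in the libraries lacking Ing1 held under each alternative; it holds 10 CpG and 1 TGCCGC, in capitals.
Nap1l5, chr6:58907127-58907376, minus strand: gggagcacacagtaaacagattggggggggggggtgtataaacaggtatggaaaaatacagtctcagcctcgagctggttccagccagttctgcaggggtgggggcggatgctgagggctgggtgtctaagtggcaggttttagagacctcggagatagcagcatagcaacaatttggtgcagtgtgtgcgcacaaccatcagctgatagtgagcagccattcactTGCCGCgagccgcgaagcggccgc

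Ndn (ENSMUSG00000033585, chromosome 7), the paternally expressed growth suppressor necdin of the Snrpn-Ube3a cluster, was lower in DKO-labelled libraries. It stood there at 59.0, 61.1 and 61.9 CPM, against 83.0, 77.6 and 73.7 CPM in Ing1-KO, 71.7, 58.5 and 60.3 CPM in Gadd45a-KO-labelled cells and 78.1, 70.1 and 74.9 CPM in WT. DKO-labelled libraries lay below Ing1-KO and WT and overlapped with Gadd45a-KO-labelled cells. The fall was 0.29 on the log2 scale against WT (adjusted p = 0.0275, SE 0.0743; lost without DKO replicate 1 or 2 or WT replicate 1 or 3, adjusted p 0.0745 to 0.117). Against Ing1-KO it fell by 0.36 (adjusted p = 0.0209, SE 0.0742; lost without DKO or Ing1-KO replicate 1 or 2, adjusted p 0.0609 to 0.0885). Ube3a, the maternally expressed ubiquitin ligase of the cluster, ranged from 95.1 to 112 CPM over all libraries and was not called, nor was the paternally expressed Mkrn3. Blcap (ENSMUSG00000067787, chromosome 2), whose intron holds Nnat, was called once, lower in DKO-labelled libraries (53.6, 53.1 and 52.2 CPM) than in Ing1-KO (61.2, 59.3 and 57.3 CPM) by 0.16 on the log2 scale (adjusted p = 0.0241, SE 0.0354; lost without DKO or Ing1-KO replicate 1 or 2, adjusted p 0.0649 to 0.0866). Nnat itself, a paternally expressed proteolipid gene, stood at 3.50 ± 0.0854 CPM in DKO-labelled libraries and 4.06 ± 0.175 CPM in Ing1-KO (SD, n = 3; adjusted p = 0.187).

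The remaining 26 tested imprinted genes were called in none of the 7 comparisons by edgeR, over mean levels of 0.523 to 3211 CPM. In 17 of them the largest log2 fold change of any comparison was under 0.3 in size. No member of the Peg3, Plagl1, Kcnq1-Cdkn1c, Gnas, Impact, Zdbf2, Peg13-Trappc9, Commd1-Zrsr1, Inpp5f or H13 clusters was called. Plagl1, a paternally expressed zinc finger regulator, stood at 118, 100.2 and 129 CPM in DKO-labelled libraries, 197, 165 and 128 CPM in Ing1-KO, 161, 126 and 134 CPM in Gadd45a-KO-labelled cells and 120.2, 109 and 126 CPM in WT. Its Ing1-KO libraries lay above WT, with a log2 fold change of 0.46 ± 0.155 (adjusted p = 0.128; 0.0257 without Ing1-KO replicate 3). Peg3, a paternally expressed zinc finger gene, ranged from 223 to 283 CPM in DKO-labelled libraries, 239 to 267 CPM in Ing1-KO, 255 to 291 CPM in Gadd45a-KO-labelled cells and 261 to 288 CPM in WT, with overlap throughout. Cdkn1c, a maternally expressed inhibitor of the cell cycle, was likewise level, at 89.6 ± 32.0 CPM, 93.7 ± 13 CPM, 88.5 ± 8.51 CPM and 86.1 ± 2.09 CPM in DKO-labelled, Ing1-KO, Gadd45a-KO-labelled and WT libraries. Gnas was counted at 7.69 ± 2.06 CPM in DKO-labelled libraries and 9.22 ± 0.619 CPM in WT; 22.0% of its exon bases lie opposite Nespas and a predicted gene, and the counts of this locus are uncertain for that reason, as are those of Commd1 and Zrsr1.

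**Figure D3:**
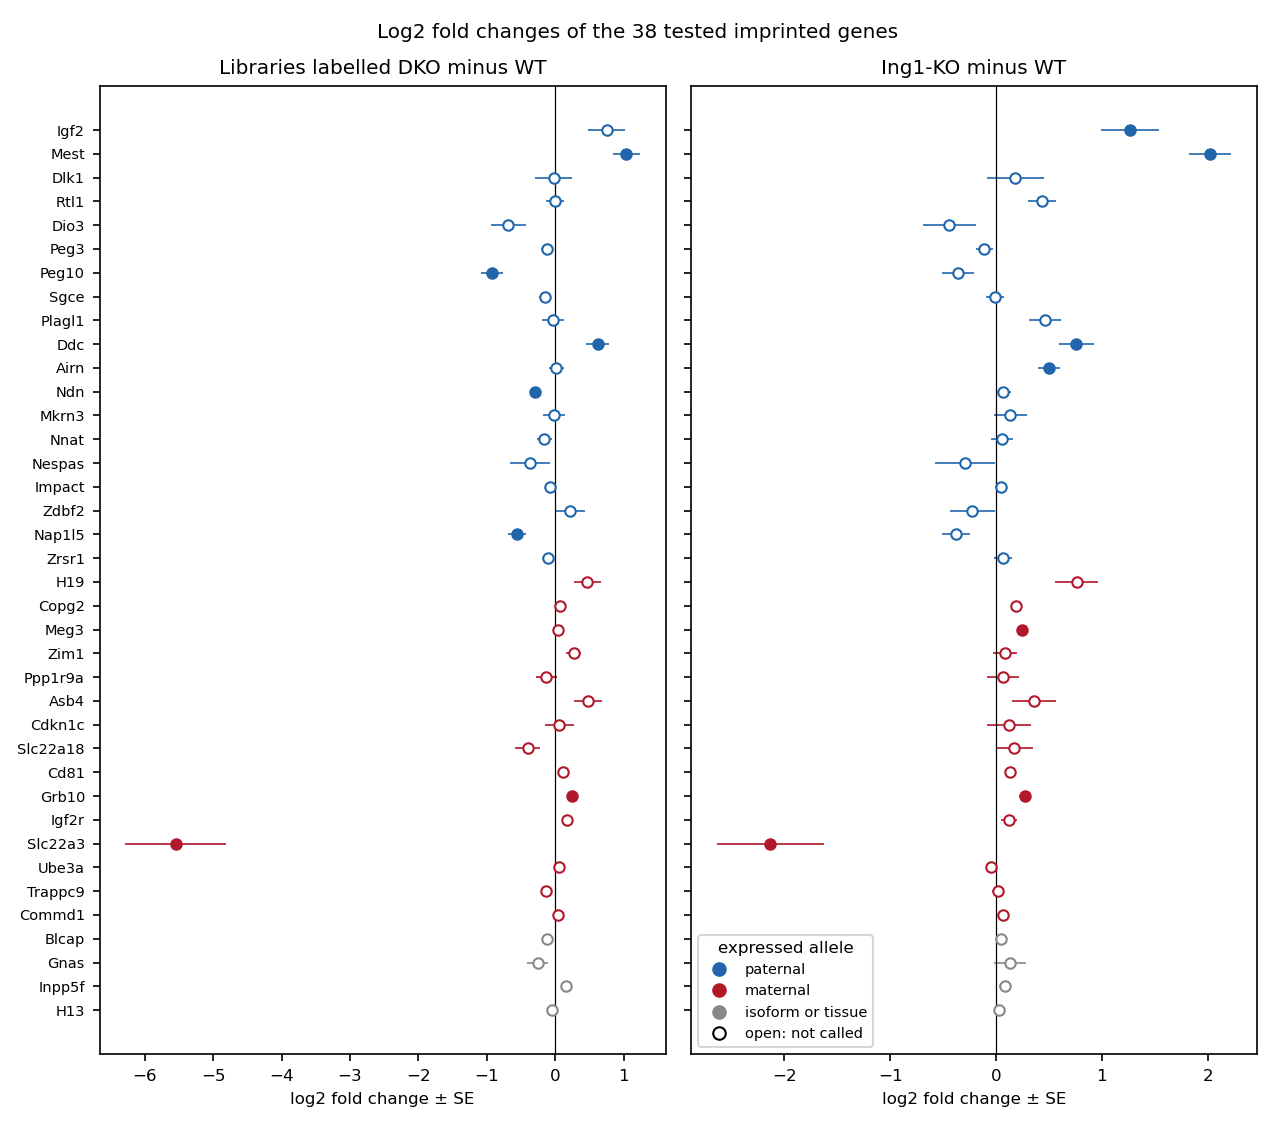
Log2 fold change (horizontal axis, bars are SE) of the 38 tested imprinted genes, for DKO-labelled libraries minus WT (left) and Ing1-KO minus WT (right), coloured by the allele known to be expressed; filled points were called at an adjusted p under 0.05. In Ing1-KO 4 paternally expressed genes are called higher and none lower (all genes, 4.15% called). In DKO-labelled libraries 2 are called higher and 3 lower (all genes, 13%).

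Set against each other by parental origin as known in mouse, most genes of either class were not called. For Ddc that origin is the one known in the embryonic heart, and for Slc22a3 the one in the placenta. Which copy was read in these cells was not measured for any gene. In Ing1-KO against WT 4 of 19 paternally expressed genes rose and none fell, while 2 of 15 maternally expressed genes rose and 1 fell. Called were 21.1% and 20% of these classes, beside 4.15% of all genes. Medians were 0.06 for the paternally and 0.12 for the maternally expressed genes. Positive were 12 of 19 against 13 of 15, beside 50.8% of all genes. Against WT, in DKO-labelled libraries, 2 paternally expressed genes rose and 3 fell (median -0.08, 5 of 19 positive). Of the maternally expressed genes 1 rose and 1 fell (median 0.06, 11 of 15 positive). The shares called were 26.3% and 13.3%, beside 13% of all genes. Positive values made up 49.3% of all genes there. Against Ing1-KO, in DKO-labelled libraries, 4 of 19 paternally and 2 of 15 maternally expressed genes fell and none of either class rose. That was 21.1% and 13.3%, beside 12% of all genes. With Ing1 loss averaged over both backgrounds, 3 paternally expressed genes rose and 2 fell, and 2 maternally expressed genes rose and 1 fell. Here 26.3% and 20% were called, beside 8.16% of all genes. Within clusters, paired genes of opposite origin were called in the same direction in Mest (with Copg2, averaged over both backgrounds) and Grb10 (with Ddc), and in opposite directions in the Igf2r cluster, where Airn rose and Slc22a3 fell in Ing1-KO. These are counts of genes that share clusters and control regions, not independent replicates, and the difference between the classes was not tested.

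**Figure D4:**
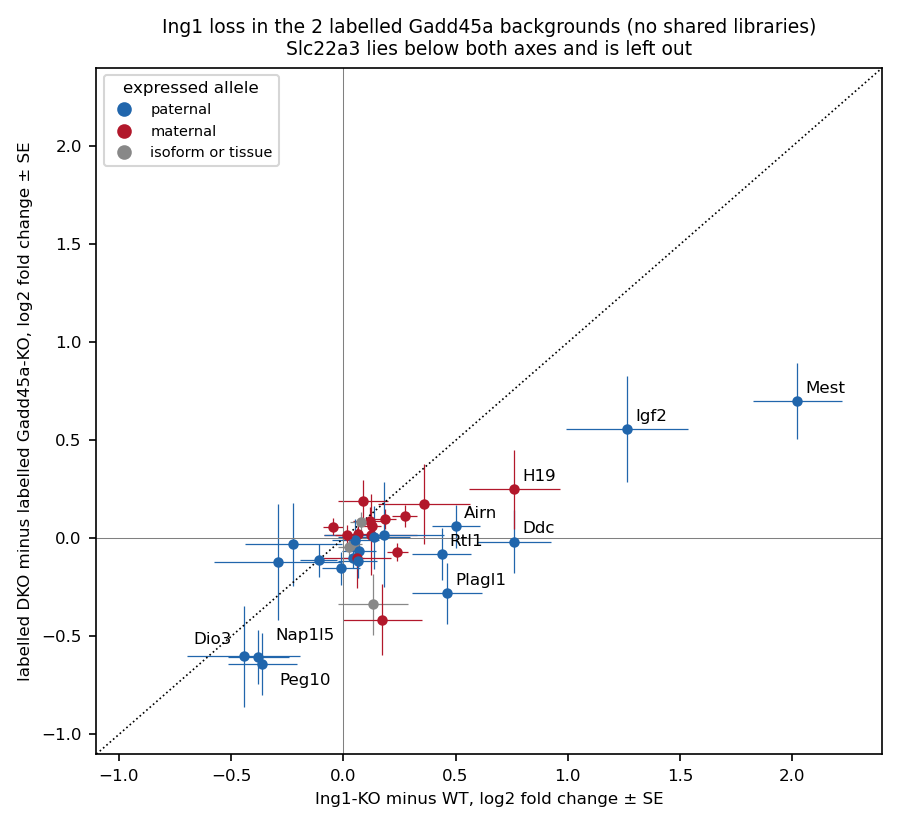
Log2 fold change of Ing1-KO over WT (horizontal axis) against that of DKO-labelled libraries over Gadd45a-KO-labelled cells (vertical axis) for 37 tested imprinted genes, bars are SE and the dotted line marks equal values; the 2 comparisons share no library. Mest and Igf2 lie to the right and below the line, and Peg10, Nap1l5 and Dio3 lie at negative values on both axes; Slc22a3 (-2.14 and -4.59) is outside the plotted range.

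Loss of Ing1 can be read in 2 comparisons that share no library. Of the 38 imprinted genes 24 had the same sign in both (63.2%), beside 58.2% of all genes, so agreement of sign was near that of genes at large. Mest was 2.02 and 0.70, Igf2 1.26 and 0.56, and Slc22a3 -2.14 and -4.59 in Ing1-KO over WT and in DKO-labelled libraries over Gadd45a-KO-labelled cells. Ddc, at 0.76 and -0.02, and Airn, at 0.50 and 0.06, had values near 0 in the second comparison; the interaction was called for neither (adjusted p = 0.26 and 0.279). Within Ing1-KO, replicate 1 was the highest of the 3 libraries for 23 of the 38 imprinted genes and replicate 3 the lowest for 21, beside 36.7% and 37.5% of all genes. Replicate 1 had the highest and replicate 3 the lowest sum of adipocyte markers.

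Most factors that set, protect or read imprints were not called. Of 26 tested members of a list of 29, none was called in Ing1-KO against WT, in Gadd45a-KO-labelled cells against WT, or in the averaged Ing1 comparison. In DKO-labelled libraries against WT 5 rose and 1 fell (all genes, 13%): Arid4b and Arid4a, which encode chromatin proteins that act at the Snrpn control region in mice, rose by 0.19 ± 0.0383 (adjusted p = 0.0139) and 0.25 ± 0.0548 (adjusted p = 0.0174). Atrx, a chromatin remodeller, rose by 0.13 ± 0.0337 (adjusted p = 0.0298), and Dnmt3l, the cofactor of methylation in germ cells, fell by 0.93 (adjusted p = 0.0351, SE 0.251) with 1.15, 1.28 and 1.86 CPM in DKO-labelled libraries and 2.37, 2.69 and 3.12 CPM in WT. Against Ing1-KO, 3 of the 26 rose in DKO-labelled libraries, near the 12% of all genes called there: Suz12 rose by 0.24 ± 0.0423 (adjusted p = 0.0149), Smchd1 by 0.14 ± 0.0391 (adjusted p = 0.0415) and Eed by 0.27 ± 0.0745 (adjusted p = 0.0423). Suz12 and Eed are subunits of Polycomb complex PRC2 and Smchd1 a silencing protein of imprinted clusters and the inactive X. Zfp57 and Trim28 were called in no comparison.

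Protein-coding genes outside the list that start within 500 kb of a listed gene, 144 of them tested, give the surroundings of the clusters. Whether any of them is itself imprinted was not assessed. In Ing1-KO against WT 7 were called (4.86%), near the 4.15% of all genes, and in DKO-labelled libraries against WT 16 (11.1%, against 13%). In DKO-labelled libraries against Ing1-KO 16 rose and 6 fell, together 15.3% against 12%. In the averaged Ing1 comparison 10 were called (6.94%, against 8.16%), and in DKO-labelled libraries against Gadd45a-KO-labelled cells 1 (0.694%, against 1.19%). Shank2, a scaffold gene of synapses near the Kcnq1-Cdkn1c cluster, had the smallest adjusted p among them. It stood at 3.61, 4.42 and 4.33 CPM in DKO-labelled libraries and 3.47, 3.39 and 4.02 CPM in Ing1-KO, against 6.59, 8.09 and 7.26 CPM in Gadd45a-KO-labelled cells and 6.81, 6.91 and 6.63 CPM in WT. It fell by 0.86 on the log2 scale in the 6 libraries lacking Ing1, which lay below the other 6 without overlap (adjusted p = 0.000444, SE 0.0768). Near Mest, Cpa4, a carboxypeptidase gene, stood at 2.23 ± 0.621 CPM in Ing1-KO and 0.869 ± 0.228 CPM in WT (log2 fold change 1.35 ± 0.307, adjusted p = 0.036), and Klhdc10 at 79.0 ± 1.70 CPM and 69.9 ± 1.54 CPM (0.18 ± 0.0408, adjusted p = 0.0389); these 2 were named after their values had been seen. In the same comparison Dync1i1, a dynein chain gene near Peg10, rose by 1.32 ± 0.240 (adjusted p = 0.0162), and it fell by 1.24 in DKO-labelled libraries against Ing1-KO (adjusted p = 0.0188, SE 0.240).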

How the data were processed

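The authors deposited 1 table of unnormalized read counts by Ensembl identifier for each library. The submitters' processing notes name HTSeq 0.5.4, TopHat2 2.0.9 and Bowtie2 2.1.0, beside FastQC and DESeq, and the builds NCBIM37 and mm9. How HTSeq treated strand and overlaps is not given in the sources used here. Per the labels' protocols, libraries were made from 280 ng RNA with a kit that does not mark strand, and read for 51 cycles from 1 end. In each file 5 lines name no gene and took 24.2% to 24.8% of the reads; they stayed out of library sizes and tests.

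From these counts, CPM with TMM factors (0.986 to 1.01), log2 fold changes and tests were computed with edgeR 4.0.16 in R 4.3.3: genes were filtered with filterByExpr, 1 robust quasi-likelihood model of the 4 genotype means took in the 12 libraries, and p-values were adjusted by Benjamini-Hochberg over 16163 genes. A gene was called at an adjusted p under 0.05. Standard errors were derived from the F statistic and the log2 fold change. The steps were tested on simulated counts. Symbols came from a later mouse annotation on GRCm38 and matched 32919 identifiers; it served for names, neighbours and shared exon bases only. Promoter sequences are RefSeq's, on GRCm38.p6.

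The members and all lists (markers of fibroblasts, adipocytes, leukocytes, cartilage, muscle, neurons and endothelium, and factors of imprint control) were chosen with earlier results of these data known. Every imprinted gene called in any comparison is named, with its partners in the cluster, and of the other lists and neighbours those with the smallest adjusted p. Alternatives were DESeq2 1.42.0, RLE or upper-quartile scaling, testing without the filter or from 5 CPM upwards, blocking by replicate number, fitting the 6 compared libraries alone, and omitting each library. No pair of replicates was as close as sampling noise allows.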

Additional observations from a re-analysis of the deposited data

How the results depend on the processing

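Of the 30 calls of single imprinted genes, 6 held under every setting in which the gene was tested: Mest, Nap1l5 and Slc22a3 in the averaged Ing1 comparison, Mest in Ing1-KO against WT, and Peg10 and Slc22a3 in the libraries labelled DKO against WT. No value changed sign in any call. RLE and upper-quartile factors and DESeq2 lost 0 of the 30 calls, and no filter lost 7. Leaving out 1 library lost between 1 and 20. The number of imprinted genes called with 1 library left out ranged from 1 to 9 in Ing1-KO against WT (all genes, 0.586% to 7.05% called), 2 to 10 in the libraries labelled DKO against WT (1.82% to 16.8%), 0 to 4 against those labelled Gadd45a-KO (0.0366% to 3.66%), 0 to 15 against Ing1-KO (0.0366% to 19.4%), 3 to 10 in the averaged comparison (3.21% to 10.6%) and 0 to 1 in the interaction (0% to 1.17%). The share of all genes called thus moved over a wide range in the same fits. DESeq2 called 12 in Ing1-KO against WT (all genes, 7.77%), 4 in the libraries labelled DKO against those labelled Gadd45a-KO (7.75%) and 2 in the interaction (1.07%). With the 6 libraries compared alone, 2, 11, 3 and 3 were called in Ing1-KO against WT and in the libraries labelled DKO against WT, against those labelled Gadd45a-KO and against Ing1-KO, beside 2.52%, 20.3%, 2.77% and 7.84% of all genes; the cause was not tested. Against the libraries labelled Gadd45a-KO, 2 were called with upper-quartile factors (all genes, 1.47%) and 2 with no filter (0.793%). Transcripts of few reads, Slc22a3 and Ddc among them, drop out at a mean of 5 CPM.

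Replicate numbers do not pair the libraries: 4 of 18 same-numbered pairs correlated above 0.1 in their deviations from the genotype means, and 3 of 12 libraries correlated best with their own number. With the replicate number as a block, 0 imprinted genes and 0.569% of all genes were called in the libraries labelled DKO against those labelled Gadd45a-KO, and 6 of the 30 calls were lost.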
